A study of Mus musculus with 4 samples.

Results

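The genes described here are 9 secreted antagonists and modulators of bone morphogenetic proteins (BMPs): Sostdc1, Grem1, Nog, Chrdl1, Chrd, Bmper, Twsg1, Fst and Fstl1. They were taken as every probe, other than control probes, that the scanner files name for one of these genes, which gave 13 of 39429 probes. All 9 genes were represented among the 19365 genes tested. Transcripts were measured in ureters dissected from NMRI mouse embryos at E14.5 (embryonic day). The mutants, called cDKO here, were homozygous for floxed alleles of 2 receptor genes of fibroblast growth factors (FGFs), Fgfr1(fl/fl) and Fgfr2(fl/fl), and carried Tbx18(cre/+), with cre recombinase expressed from the Tbx18 locus, which is active in the mesenchyme around the ureter. The controls were labelled Fgfr1(fl/?);Fgfr2(fl/?), so each receptor gene had a floxed copy in both genotypes. No cre allele is listed for the controls, so cre itself and its insertion at Tbx18 also distinguished the groups. There were 4 arrays, each with cDKO RNA in one dye and control RNA in the other, of the same sex label. The cDKO RNA carried Cy5 on replicates 1 and 3 and Cy3 on replicates 2 and 4. Replicates 1 and 2 lay on slide 1 and replicates 3 and 4 on slide 2. The labels do not say how many embryos stand behind a replicate. The spread behind each p-value is that among 4 pairs of extracts, drawn by limma toward the spread over all genes. It may in part be technical.

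BMPs are secreted signals that bind serine/threonine kinase receptors and act through SMAD transcription factors. In the developing mouse ureter BMP4 from the mesenchyme is known to promote smooth muscle differentiation and to act on the neighbouring epithelium. Secreted antagonists bind BMPs outside the cell and keep them from their receptors, while modulators such as Twsg1 and Bmper are known to hinder or to help signalling depending on the setting. In whole dissected ureters a change in the number of cells that make a transcript and a change in its amount per cell cannot be told apart.

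Sostdc1 and Chrdl1 had the values with the smallest p among the 9 genes, and both are covered by several probes. The first 30 of the 60 bases of 4 of these probes are shown because the values below were read at these places. They are written 5′ to 3′ as the scanner files give them, in lower case with nothing marked.
Sostdc1, first probe: tctcaagatgtaatgagtagtttgcagtga
Sostdc1, second probe: tttttccagtctcagtgtgaaattatcccc
Chrdl1, first probe: aaattcaggtggaagcatgcttattagggg
Chrdl1, second probe: cacaggacatgtacccaaatatggtactta
The first Sostdc1 probe lies at chr12:37044197-37044256 and the second at chr12:37044532-37044591 (mm9, plus strand), with starts 335 bases apart, and both carry the accession NM_025312. The first Chrdl1 probe, at chrX:139732534-139732593 (mm9, minus strand), was designed on the transcript variant NM_031258. The second, at chrX:139720248-139720307 (mm9, minus strand), was designed on the variant NM_001114385. The first Sostdc1 probe has a stop triplet in all 3 forward reading frames. Whether any of the 4 lies in coding or untranslated sequence was not determined.

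Of the 9 genes, Sostdc1 rose in cDKO ureters and none fell. All 9 log2 ratios of cDKO over control were above 0, with a median of 0.22, whereas 52.7% of all genes tested lay above 0 and their median was 0.01. The ratio was above 0 on all 4 arrays for 6 of the 9, namely Sostdc1, Chrdl1, Grem1, Fst, Fstl1 and Twsg1, against 13.4% of all genes. The threshold for a call was 0.05 on p-values of limma's test after Benjamini-Hochberg adjustment over all genes. It was passed upward by 1 of the 9 genes and by 0.553% of all genes (0.852% in either direction). At an unadjusted p under 0.05, 5 of the 9 were higher, against 11.7% of all genes (19.6% in either direction). With slide as a term in the fit 4 of the 9 (Sostdc1, Chrdl1, Grem1 and Fst) were called higher, against 8.01% of all genes. The channel levels of 4 of the 9 did not overlap between the genotypes, each with cDKO above control, a pattern that 4.71% of all genes had (3.33% had the reverse). Chrdl1 and Grem1 passed the filter on dim probes through the cDKO channel alone, since their control signal was not above background on replicate 4. That channel had the lowest share of spots well above background over the whole array (64.9%, against 71.3% to 72.6% in the other control channels). Among the 7 genes measured in both channels of all arrays the median was 0.16, 3 had an unadjusted p under 0.05, 4 were above 0 on all arrays and 2 had levels that did not overlap. Of these 7, Sostdc1 was called here, and Sostdc1 and Fst were called with the slide term. These counts describe the 9 genes and are not a test of them as a group. The 9 were chosen with earlier results of these data known. The plot of ratios by array shows that the 4 arrays differed in size more for Fst, Nog, Sostdc1 and Twsg1 than for Grem1 or Chrdl1. This evenness depends on the background correction. With the scanner software's own background-subtracted signals Chrdl1 ran from 0.70 to 1.11 and Sostdc1 from 0.43 to 0.85.

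**Figure D1:**
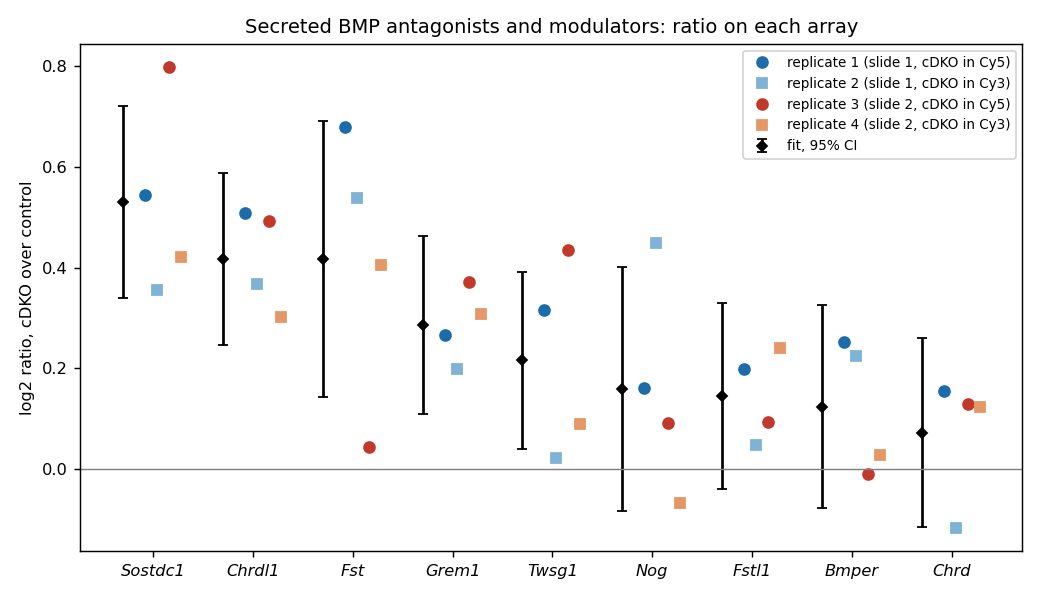
Log2 ratio of cDKO over control (vertical axis) for the 9 genes, ordered by the fitted value. Coloured symbols are the 4 arrays, and black diamonds with bars are the fit with its 95% confidence interval. Sostdc1, Chrdl1, Fst, Grem1 and Twsg1 have intervals above 0, and only Sostdc1 passed the adjusted threshold.

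Sostdc1 encodes a secreted cystine-knot protein that binds BMPs and also the LRP co-receptors of WNT signalling. Its level at the first probe, in log2 units of the normalized channel signal, was 9.35, 9.41, 10.12 and 9.70 in cDKO ureters (replicates 1 to 4), against 8.80, 9.06, 9.33 and 9.28 in control ureters. The lowest cDKO level thus lay just above the highest control level, and slide 2 was higher than slide 1 in both genotypes. The log2 ratio was 0.55, 0.36, 0.80 and 0.42 on the 4 arrays, and the fit gave 0.53 ± 0.08 (SE, n = 4), which is 1.44-fold (limma, adjusted p = 0.0482). The spread between arrays (SD 0.20) exceeded the spread between the spots of an array (SD 0.03 to 0.08).

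The second Sostdc1 probe gave a more even result. Its levels were 9.44, 9.52, 9.80 and 9.80 in cDKO ureters, against 8.79, 8.96, 9.12 and 9.07 in control ureters, and again the groups did not overlap. The log2 ratios were 0.65, 0.56, 0.68 and 0.73. In a limma fit over all 25591 kept probes this probe gave 0.66 ± 0.07 (SE, n = 4; adjusted p = 0.0355), and the first probe gave an adjusted p of 0.0529, so both probes rose by similar amounts but lay on different sides of the threshold. The call at the gene level was lost without any 1 array, although the size of the ratio changed little: without replicates 1, 2, 3 and 4 in turn it was 0.59, 0.55, 0.47 and 0.51, with adjusted p of 0.129, 0.0898, 0.0978 and 0.0565 in limma. The call was also lost within slide 1 (log2 ratio 0.45, adjusted p = 0.113), within slide 2 (0.61, adjusted p = 0.417), with median centring in place of loess (0.51, adjusted p = 0.189), without the filter on dim probes (0.53, adjusted p = 0.0979) and with a sex term (0.53, adjusted p = 0.128). It was kept in the other 7 of 16 alternatives, among them the slide term, where the adjusted p was 0.00345.

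**Figure D2:**
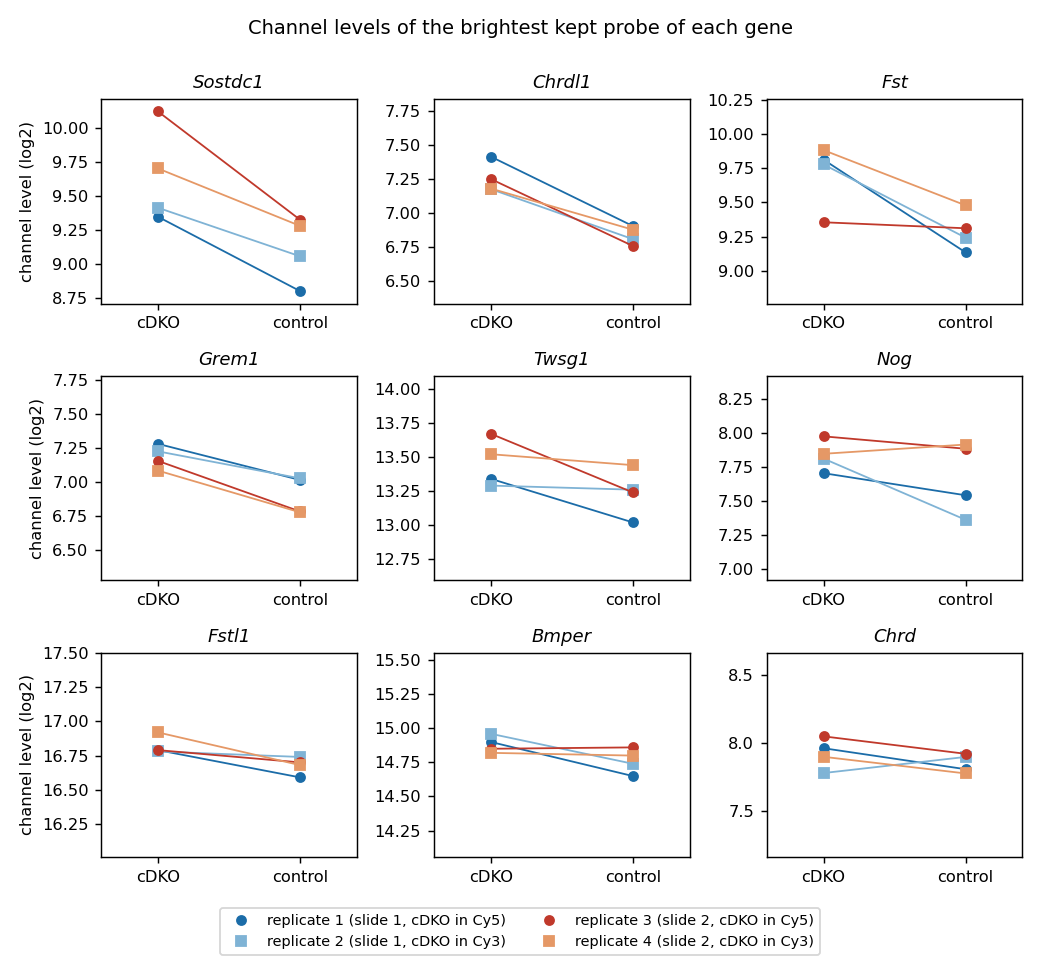
Channel level (log2, vertical axes of equal length) of the brightest kept probe of each gene in cDKO and control ureters. Each line joins the 2 channels of 1 array, and levels of different genes are not comparable. The cDKO and control levels do not overlap for Sostdc1, Chrdl1, Grem1 and Fstl1.

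Grem1 encodes gremlin, a cystine-knot antagonist that in the mouse kidney lowers BMP4 activity so that the ureteric bud can grow out. Its probe, at chr2:113589227-113589286 (mm9, minus strand; NM_011824), was dim. The mean spot intensity in the cDKO channel was 181, 64.8, 191.3 and 116.7 over a local background of 77, 25.5, 100.5 and 33.5, and on replicate 4 none of the 4 control spots was well above background. The level was 7.28, 7.23, 7.16 and 7.08 in cDKO ureters, against 7.02, 7.03, 6.78 and 6.78 in control ureters, so the groups did not overlap. The log2 ratios of 0.26, 0.20, 0.37 and 0.31 varied little, and the fit gave 0.29 ± 0.07 (SE, n = 4; limma, adjusted p = 0.12), which did not pass. With the scanner software's own background-subtracted signals the same gene stood at 0.67 ± 0.09 (limma, adjusted p = 0.0435), and with a slide term the adjusted p was 0.0332. Within slides the mean ratio was 0.23 on slide 1 and 0.34 on slide 2.

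Noggin, encoded by Nog, binds several BMPs and blocks both of their receptor contacts. Its probe lies at chr11:89162849-89162908 (mm9, minus strand; NM_008711). The levels were 7.70, 7.81, 7.97 and 7.84 in cDKO ureters, against 7.54, 7.36, 7.88 and 7.91 in control ureters, and they overlapped. The ratio changed sign between arrays (0.16, 0.45, 0.09 and -0.07), and the fit of 0.16 ± 0.10 (SE, n = 4; limma, adjusted p = 0.435) had a 95% confidence interval from -0.08 to 0.40. It rested on replicate 2, without which it was 0.03, and it was 0.29 without replicate 4 and 0.26 with the scanner's processed signals. Its mean was 0.31 on slide 1 and 0.01 on slide 2.

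Chrdl1 encodes chordin-like 1, a relative of chordin that binds BMPs through von Willebrand factor C repeats. At the first probe the level was 7.42, 7.18, 7.25 and 7.18 in cDKO ureters, against 6.91, 6.81, 6.76 and 6.88 in control ureters. Every cDKO level lay above every control level. The log2 ratios were 0.51, 0.37, 0.49 and 0.30, and the fit gave 0.42 ± 0.07 (SE, n = 4), or 1.34-fold, with an adjusted p of 0.0611 in limma, which missed the threshold. The mean ratio was 0.44 on slide 1 and 0.40 on slide 2, and with a slide term the adjusted p was 0.0082.

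This probe was dim too, and the size of its ratio depended on the background correction. In the cDKO channel the mean spot intensity was 194.6, 64.5, 197.5 and 125.4 over a local background of 72.9, 25.9, 95 and 30.8. In the control channel only 1 of the 4 spots was well above background on replicate 4. With the scanner's processed signals the log2 ratios were 1.11, 0.96, 1.04 and 0.70, and the fit gave 0.95 ± 0.09 (limma, adjusted p = 0.0289), or 1.94-fold. With a smaller offset of 16 in the correction used here it was 0.58 (adjusted p = 0.0323). The plot of 3 background corrections shows that Chrdl1 and Grem1, the 2 genes whose control signal fell below the detection limit on 1 array, moved most.

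**Figure D3:**
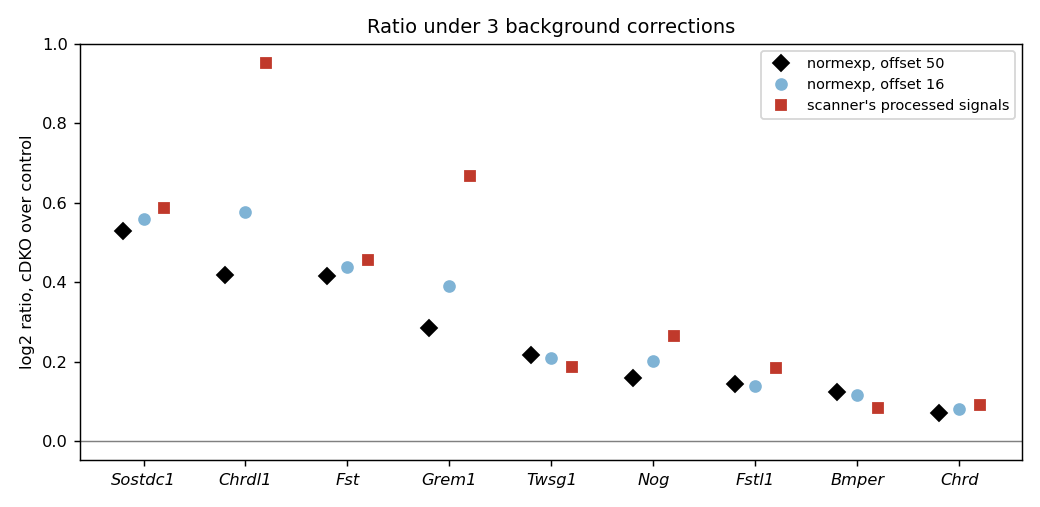
Log2 ratio of cDKO over control (vertical axis) for the 9 genes with the correction used here (normexp, offset 50), with an offset of 16, and with the scanner's processed signals. Chrdl1 reaches 0.95 and Grem1 0.67 with the processed signals, against 0.42 and 0.29 with the offset of 50, while all 9 genes stay above 0.

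The other Chrdl1 probes were too dim to be kept. At the second probe, at least 3 of the 4 spots were well above background on 2 arrays in cDKO ureters and on none in control ureters. Since the cDKO signal was not measured on every array either, the probe gives no size and no lower bound for the difference. The remaining probe, at chrX:139725644-139725703, was not well above background in either genotype. The signal for Chrdl1 was therefore measured on all 4 cDKO channels only at the probe designed on the variant NM_031258.

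Chordin, encoded by Chrd, holds BMPs in an inactive complex and is cut by tolloid proteases. Its brighter probe, at chr16:20739049-20739221 (mm9, plus strand; NM_009893), spans 113 genomic bases more than its own 60 and so crosses at least 1 splice junction. The levels were 7.96, 7.78, 8.05 and 7.90 in cDKO ureters, against 7.81, 7.90, 7.92 and 7.78 in control ureters, and the 2 ranges overlapped. The log2 ratios were 0.15, -0.12, 0.13 and 0.12, and the fit gave 0.07 ± 0.08 (SE, n = 4; limma, adjusted p = 0.667; 95% confidence interval -0.12 to 0.26). The second Chrd probe, at chr16:20738166-20738225, gave nearly the same pattern, with 0.12, -0.04, 0.13 and 0.17. At both probes replicate 2 was the only array below 0, and the fit at the brighter probe was 0.13 without replicate 2 and 0.01 without replicate 4.

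**Figure D4:**
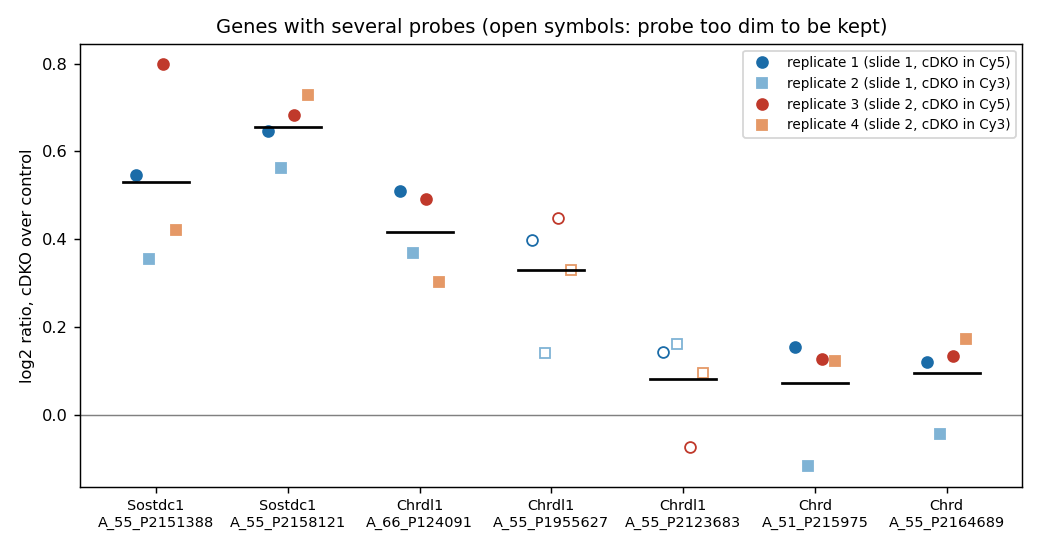
Log2 ratio of cDKO over control (vertical axis) for each probe of Sostdc1, Chrdl1 and Chrd, with the 4 arrays as symbols and their mean as a line. Open symbols mark the 2 Chrdl1 probes that were too dim to be kept, whose ratios do not measure a size. Both Sostdc1 probes lie above 0.35 on every array, and both Chrd probes dip below 0 on replicate 2.

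Bmper encodes a BMP-binding protein related to the fly protein crossveinless 2, and Twsg1 encodes twisted gastrulation, which binds BMPs together with chordin. Both had strong signals. Bmper (chr9:23289301-23289360, mm9, plus strand; NM_028472) had levels of 14.90, 14.96, 14.85 and 14.82 in cDKO ureters, against 14.65, 14.74, 14.86 and 14.80 in control ureters. The difference was seen on slide 1 (log2 ratios 0.25 and 0.22) and was close to 0 on slide 2 (-0.01 and 0.03), and the fit gave 0.12 ± 0.08 (SE, n = 4; limma, adjusted p = 0.466). A test of the difference between slides did not pass (limma, adjusted p = 0.495), as 0.893% of all genes did. The ratio was 0.06 without replicate 1, 0.07 without replicate 2, 0.19 without replicate 3 and 0.06 with median centring in place of loess.

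Twsg1 (chr17:66272751-66272810, mm9, minus strand; NM_023053) had levels of 13.34, 13.29, 13.67 and 13.52 in cDKO ureters, against 13.02, 13.26, 13.24 and 13.44 in control ureters. Its ratios divided by dye, with 0.32 and 0.44 where cDKO carried Cy5 and 0.02 and 0.09 where it carried Cy3. The fit, which has a term for the dye, gave 0.22 ± 0.07 (SE, n = 4; limma, adjusted p = 0.187), and the dye term itself did not pass (adjusted p = 0.594). In the scanner's processed signals Twsg1 was slightly below 0 on replicate 2 (-0.04).

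Follistatin, encoded by Fst, is best known for binding activins and also binds some BMPs. Its probe lies at chr13:115243565-115243624 (mm9, minus strand; NM_001301375). The levels were 9.81, 9.78, 9.36 and 9.88 in cDKO ureters, against 9.13, 9.24, 9.31 and 9.48 in control ureters. The ratio was lowest on replicate 3, at 0.04, whereas the other arrays gave 0.68, 0.54 and 0.41. The fit gave 0.42 ± 0.11 (SE, n = 4; limma, adjusted p = 0.137), or 1.33-fold, as large as that of Chrdl1 but with a wider 95% confidence interval (0.14 to 0.69). That equal size holds for the correction used here. With the scanner's processed signals Fst stood at 0.46 and Chrdl1 at 0.95. The mean ratio was 0.61 on slide 1 and 0.22 on slide 2, and that difference had an unadjusted p of 0.046 and an adjusted p of 0.34 in limma. With a slide term the genotype effect had an adjusted p of 0.0154, and without replicate 1 the ratio was 0.26.

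Fstl1 encodes a secreted glycoprotein of the follistatin family that binds BMP4 in the mouse lung. Its probe (chr16:37836492-37836551, mm9, plus strand; NM_008047) was brighter than 98.6% of all probes. Its levels were 16.79, 16.78, 16.79 and 16.92 in cDKO ureters, against 16.59, 16.74, 16.70 and 16.68 in control ureters. The groups did not overlap, but the log2 ratios of 0.20, 0.05, 0.09 and 0.24 were small. The fit gave 0.14 ± 0.08 (SE, n = 4; limma, adjusted p = 0.352), with a 95% confidence interval from -0.04 to 0.33, which leaves out a change of the size fitted for Sostdc1. It was 0.10 without replicate 4 and 0.01 with median centring in place of loess.

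No gene among the 9 had a cDKO effect that differed between the 2 female-labelled and the 2 male-labelled arrays in limma. The largest gaps were those of Fst (0.54 on female-labelled and 0.29 on male-labelled arrays) and Nog (0.05 and 0.27), with unadjusted p of 0.333 and 0.347. Over all 19365 genes none passed this test either. It has 1 residual degree of freedom and cannot tell sex labels from a dye effect that differs between slides.

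The other genes of the BMP pathway were read from a list of 55, of which 49 were measured. Of these 2 rose and none fell, against 0.553% and 0.3% of all genes. The log2 ratios ran from -0.94 to 0.79 with a median of 0.10, and 15 of the 49 lay below 0. Gdf5, which encodes a BMP family ligand of joints, rose at its brightest probe (0.73 ± 0.10, SE, n = 4; limma, adjusted p = 0.0425), but its other kept probe stood at 0.11. Smoc2, which encodes a secreted calcium-binding matrix protein, rose as well (0.64 ± 0.09, SE, n = 4; limma, adjusted p = 0.0429), with 0.86, 0.69, 0.47 and 0.56 on the 4 arrays. Smoc2 belongs to the group of other secreted modulators and proteases. Of the 13 measured members of this group 12 lay above 0, against 52.7% of all genes, and the median was 0.15.

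Ligands had a median of 0.15 over 10 measured genes. Receptors and co-receptors had a median of 0.11 over 10, with none called, and the smallest p were those of the type I receptor genes Acvr1 (0.42, limma adjusted p = 0.0627) and Bmpr1b (0.42, adjusted p = 0.0779). Signal transducers had a median of 0.12 over 8, again with none called, led by the inhibitory Smad7 (0.41, adjusted p = 0.0998) and by Smad9 (0.32, adjusted p = 0.166). The list of 8 genes that BMP signals are known to activate holds none of the signal transducers, such as Smad7. None of the 8 was called, their median was -0.03 and only 2 lay above 0. The smallest p in that group were those of Msx2 (-0.28, adjusted p = 0.169) and Hey1 (-0.13, adjusted p = 0.447).

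**Figure D5:**
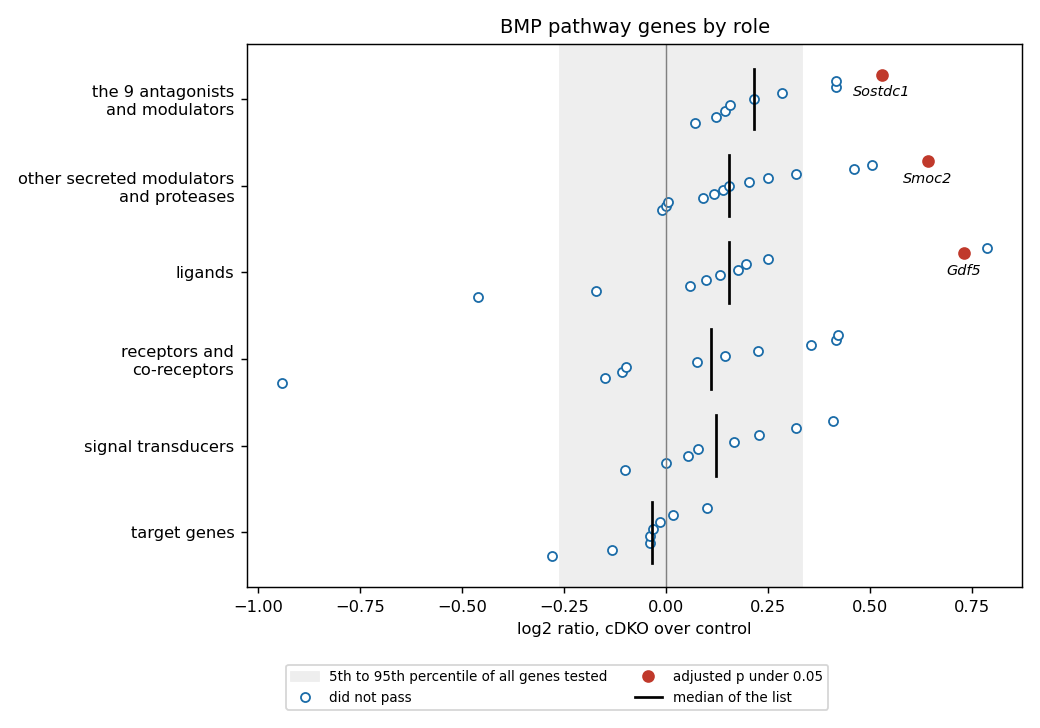
Log2 ratio of cDKO over control (horizontal axis) for the 9 antagonists and modulators (top row) and for other measured BMP pathway genes by role. Each point is a gene, red points passed an adjusted p under 0.05, and black lines are medians. The medians are 0.22 for the top row, -0.03 for the listed target genes (bottom row) and 0.11 to 0.15 for the rows between. The shaded range from -0.26 to 0.33 runs between the 5th and 95th percentiles of all genes tested.

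Markers of the cell types in the dissected tissue moved as well. The 5 markers of ureteric mesenchyme (Tbx18, Tshz3, Sox9, Foxf1 and Aldh1a2) were all above 0 (median 0.45, none called), against 52.7% of all genes. Their summed levels, on the linear scale, were 54600 to 58100 in cDKO ureters, against 39400 to 46940 in control ureters. Of 8 urothelial markers 6 lay below 0 and Upk1b and Krt20 fell (summed levels 9377 to 12280 in cDKO, against 14970 to 17730 in control). In the same list Shh stood at 0.53 (limma, adjusted p = 0.12), Krt5 at 0.12 and Trp63 at -0.03. Of 5 erythroid markers all were below 0 and Hba-x and Hbb-bh1 fell, while Emcn among 5 endothelial (median -0.27), Fcer1g among 5 leukocyte (median -0.24) and Msln among 3 mesothelial markers (median -0.36) fell. Of 3 cartilage markers Hapln1 fell (-0.54), whereas Col2a1 stood at 0.64 (limma, adjusted p = 0.0578) and Acan at 0.03. No gene was called among smooth muscle (median 0.14), nephron progenitor (0.12), neuronal and glial (-0.02), gonadal and adrenal (0.11) or skeletal muscle markers (0.06). The part of these shifts in the ratios of the 9 genes was not tested. Tbx18, which is 1 of the 5 mesenchymal markers and carries the cre insertion in cDKO, stood at 0.26 (limma, adjusted p = 0.164). The targeted genes stood at -0.40 (Fgfr1, adjusted p = 0.117) and 0.59 (Fgfr2, adjusted p = 0.0356) in limma, and since the sources used here do not place their probes relative to the floxed parts, these values do not check the labels.

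Over the 4 log2 ratios, the genes whose values lay nearest to those of Sostdc1 were Slc24a2 (Euclidean distance 0.159), Pnliprp1 (0.185) and Slc1a3 (0.202), out of 14781 genes with a current symbol.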

How the data were processed

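Per the labels, total RNA (150 ng) was amplified and labelled in 2 colours and hybridised to microarrays. The authors quantified the scans, per the file headers, with Agilent Feature Extraction 10.7.3.1, and coordinates are mm9. The deposited intensity values are the mean and local background of each spot. Per the file headers, processed intensity and log10 ratios of red over green, background subtracted and dye normalized, are given too. The authors' deposited table holds a score per probe, a signed fold never between -1 and 1, with a median of 1 in every column. Its correlation with red over green (0.945, -0.935, 0.909 and -0.91) showed that positive means higher in cDKO, and the sources used here do not state its centring.

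Mean intensities were corrected with normexp (offset 50) and log2 ratios normalized by loess (span 0.3) within each array, with control and outlier spots given no weight. Values of the 4 spots of each probe were averaged. Probes needed at least 3 spots above background (the scanner's well-above-background mark) in the cDKO channel of every array or in the control channel of every array, and the brightest kept probe stood for a gene (25591 probes, 19365 genes). Of the 13 probes of the 9 genes, 11 were kept. Levels are channel values after loess and scaling of average intensities between arrays (Aquantile). No spot was saturated, and 64.9% (the control channel of replicate 4) to 72.6% of spots per channel were well above background. The number of arrays limits the precision, and so does their agreement. Between pairs of arrays the correlation of the ratios ran from 0.006 (replicates 2 and 3) to 0.51 (replicates 1 and 2).

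The fit, in limma 3.58.1 under R 4.3.3 (lmFit, eBayes), had terms for genotype and dye and left 2 residual degrees of freedom. The eBayes step drew the variance of each gene toward that of all genes, with 4.53 prior degrees of freedom. Each SE printed with n = 4 is therefore a moderated one and not the spread of that gene alone. Tests were two-sided. On simulated ratios for cDKO over control (19365 genes), a 1.5-fold change was recovered for 67.7% of the genes given it and a 2-fold change for 93.6%. False calls made up 6.42% of all calls there. All 9 genes were named by rule, with called pathway and marker genes or the 2 smallest p per pathway group. Some marker genes that were not called were named as well. Members and lists were chosen with earlier results of these data known.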

Additional observations from a re-analysis of the deposited data

Results flagged for a closer look

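In a check for 1 array far from the other 3, made on 3 quantities (the ratio, the cDKO level and the control level) of each of the 11 kept probes, 3 of 33 values stood apart by Dixon's criterion, which chance meets in about 1 group of 20. The ratio of Chrd at its brighter probe was -0.12 on replicate 2 and 0.12 to 0.15 on the other arrays (gap over range 0.885). At the second Chrd probe the cDKO level was 7.11 on replicate 2 and 7.22 on the others (0.983). The cDKO level of Fstl1 was 16.92 on replicate 4 and 16.78 to 16.79 on the others (0.932).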

How the results depend on the processing

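All 9 ratios stayed above 0 under every alternative that gave a value. In this balanced design a slide or sex term, or leaving out the dye term, cannot move the ratio. It was also the same under either change of filter. The smallest ratios were 0.008 for Fstl1 with median centring and 0.008 for Bmper within slide 2. Those of Chrd without replicate 4 and of Nog within slide 2 were 0.012. Chrdl1 and Grem1 gave no value under the stricter filter, which needs every spot above background in both channels. Against 1 called member here, limma called 3 with the scanner's processed signals, 3 with the authors' deposited table, 2 with a normexp offset of 16, 4 with a slide term, and 0 with median centring, without the filter, with a sex term, within slide 1 and within slide 2 (3 to 5 members at an unadjusted p under 0.05). Without 1 replicate in turn the count was 0 each time, again with 3 to 5 at an unadjusted p under 0.05. The 4 with a slide term were Sostdc1, Chrdl1, Grem1 and Fst; its error term excludes the gap between slides and rests on 1 residual degree of freedom. The other pathway genes called numbered 2 here and 1 with processed signals, with the deposited table and with the mean of probes, all higher in cDKO. A slide term gave 13, of which 10 were higher, slide 1 alone 4 (3 higher) and median centring 3 (2 higher). The count was 0 within slide 2, with a sex term and without the filter, where 55 genes were tested (8 to 21 at an unadjusted p under 0.05). It was 0, 0, 3 (2 higher) and 5 (4 higher) without replicates 1, 2, 3 and 4 (10 to 16 at an unadjusted p under 0.05). Of all genes 165 were called here, 214 with processed signals and 214 with the deposited table, 255 with median centring, 263 with the offset of 16, 258 without a dye term, 2418 with a slide term, 551 within slide 1, 0 within slide 2 (1346 at an unadjusted p under 0.05), 2 with a sex term, 1 without the filter, and 34, 56, 266 and 403 without replicates 1, 2, 3 and 4. The causes were not tested. Each ratio already pairs a cDKO with a control extract on 1 array. Beyond that, no paired analysis was possible because the arrays form 1 group with no second pairing in the labels. Dim probes, such as those of Chrdl1 and Grem1, limit what the ratios show.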

Other observations

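Genes of the BMP pathway whose cDKO effect differed between the slides were looked for after their values had been seen. Of the 49 measured genes outside the 9 antagonists and modulators, 2 passed limma's test of that difference over all genes, as 0.893% of all genes did. Bmpr2, which encodes the type II BMP receptor, had log2 ratios of -1.81 and -1.78 on slide 1, and 0.12 and -0.30 on slide 2 (limma, adjusted p for the difference = 0.00399). Bmp7, which encodes a ligand of the kidney and ureter epithelium, had 1.19 and 1.28 on slide 1, and 0.44 and 0.23 on slide 2 (limma, adjusted p for the difference = 0.0393). The slides hold different extracts, and their file headers differ in scanner name or scan date, so slide, scan and extracts cannot be told apart.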
